A study of Mus musculus with 8 samples.

Results

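The ATM and ATR checkpoint genes described here are 10 genes chosen by name from the 22609 genes of the deposited table: Atm, Chek2, Mdc1, Rnf8 and Rnf168 on the ATM side, and Atr, Atrip, Topbp1, claspin and Chek1 on the ATR side. Of the 10 names, 9 matched a row as given, and claspin, named Claspn, was taken from the row Clspn, its mouse symbol. All 10 passed the filter on low values. The libraries are stranded mRNA libraries made from the total RNA of naive CD8 T cells, which have not yet met their antigen, isolated from the spleen of C57BL/6 mice aged 3 months. They comprise 4 libraries of Brca1 wild type (WT 45, 54, 57 and 65) and 4 of the genotype labelled Het for Brca1 (Het 31, 53, 56 and 139), with no treatment named for either group. The labels give neither the construction of the Brca1 allele nor the sex, litter or batch of the mice, and nothing says in words that each library is a separate animal, so a p-value here reflects how much these libraries vary, which may be technical.

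ATM and ATR are large protein kinases that start the response to damaged DNA. ATM is switched on at double strand breaks, passes the signal to the kinase CHK2, and the marked chromatin around the break is read by MDC1, which brings in the ubiquitin ligases RNF8 and RNF168 and, through them, BRCA1. ATR, held by its partner ATRIP on single-stranded DNA at stalled replication forks, is activated by TOPBP1 and passes the signal to CHK1 with the help of the adaptor claspin. The comparison asks whether the transcripts of this pathway differ when Brca1 is heterozygous in resting T cells.

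None of the 10 checkpoint genes passed the test between genotypes. By limma on log2(value + 1), with p-values adjusted over the 12048 genes with a mean of at least 10, 0 of 10 passed the threshold of 0.05, where 0.515% of all tested genes did, all 62 of them lower in Het. At an unadjusted limma p under 0.05 the count was also 0 of 10 (8.19% of all tested genes), and the genotypes overlapped in all 10 (they did not overlap in 5.0% of all tested genes). With 10 genes, shares of this size in the background leave little to read from a count of 0. Het was higher for 5 genes (52.0% of all tested genes) and lower for 5 (48.0%), with a median log2 difference of 0.0063, beside 0.01 over all tested genes. The differences ran from -0.23 for Chek2 to 0.53 for Clspn, and the limma adjusted p from 0.662 to 0.927. The 95% interval left out a 2-fold difference in either direction for 8 genes and a 1.5-fold difference for 7. Chek1 and Clspn, the lowest of the 10, are the genes whose interval reached 2-fold.

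**Figure D1:**
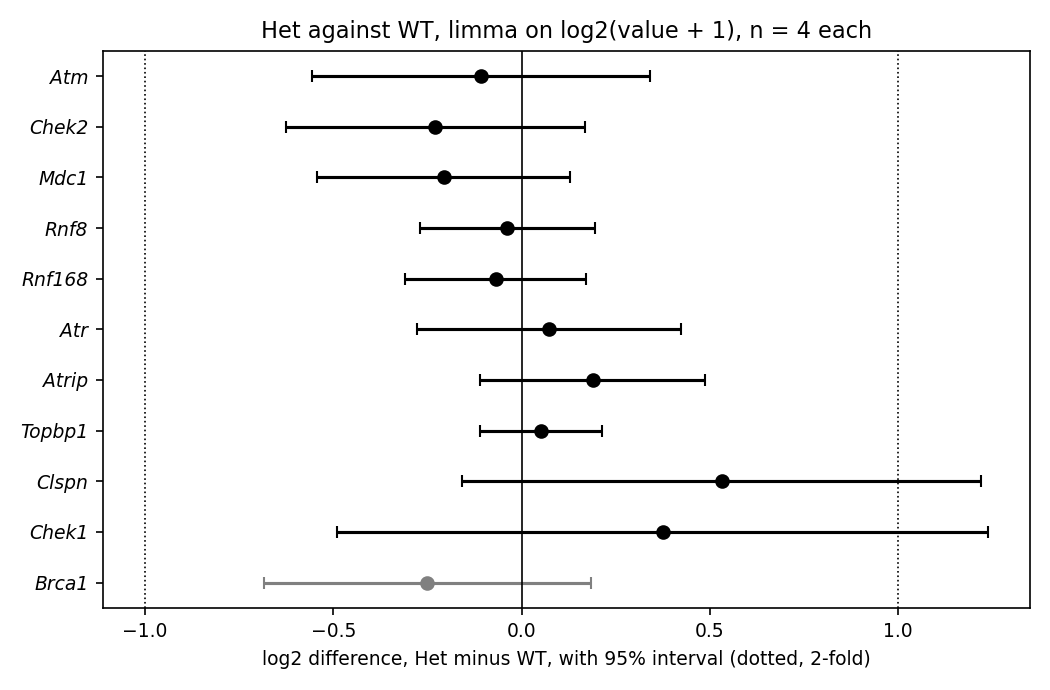
Log2 difference, Het minus WT, of each checkpoint gene and of Brca1 (grey), with its 95% interval from limma, n = 4 libraries per genotype; dotted lines mark 2-fold. Every interval includes 0, and those of Clspn and Chek1 alone pass the line of a 2-fold increase.

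The cells carried the markers of the labelled type. Cd8a, a chain of the CD8 coreceptor, was between 40591 and 50265.2 in the 8 libraries, and the 8 naive CD8 markers had mean log2 levels of 14.74 to 14.88 in WT and 14.76 to 14.93 in Het. At ranks averaging 100 or more the deposited values share 1 distribution, so totals are nearly equal and do not show depth. Below that, where Chek1 and Clspn lie, this was not checked. The lowest value above 0 ran from 0.2 to 0.3 in WT and from 0.9 to 1.9 in Het. The number of different values up to 100, a rough count of the reads behind a value of 100, ran from 106 to 128 in WT and from 74 to 121 in Het, and genes above 0 numbered 15358 to 15569 in WT against 13863 to 14656 in Het. Of the markers of nerve and connective tissue, 9 of 9 were lower in Het (48.0% of all tested genes) and 5 of 9 passed limma (0.515%). This list was chosen with earlier results of these data known, so its counts are no independent test. Its mean log2 levels were 8.34 to 9.42 in WT and 3.33 to 6.11 in Het. Dcn, a matrix proteoglycan, was at 470 ± 166 in WT against 24.8 ± 20.5 in Het (SD, n = 4 each, limma adjusted p = 0.00536). B cell markers were at 8.42 to 9.83 in WT and 8.76 to 10.94 in Het. The part of these other cells in the checkpoint genes' values was not tested. In bulk RNA, fewer cells of a type and less RNA per cell cannot be told apart.

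The start sites of the genes are shown for those discussed together below. Atm lies at chr9:53439149-53536740 on the minus strand (GRCm38, 62 exons in its longest mRNA), Atr at chr9:95857597-95951781 on the plus strand (47 exons), Chek1 at chr9:36708482-36727065 on the minus strand (12 exons) and Chek2 at chr5:110839979-110874145 on the plus strand (15 exons). All 10 have 1 entry in RefSeq's table of promoters (build GRCm38.p6, a later build than the mm9 named in the submitters' processing notes), and 5 of the 10 genes lie on chromosome 9. E2F factors, which drive genes of DNA replication, bind sites close to the forms TTTCCCGC, TTTGGCGC, TTTCGCGC and TTTGCCGC. Searched on both strands in the 250 bases before the start, at least 1 of the 4 forms was present for 3 of the 10 genes, Topbp1, Chek2 and Mdc1, and in 1.86% of all 32851 windows of that length. The Chek1 window (chr9:36726659-36726908) lies wholly inside the annotated gene. A missing match there therefore does not describe the bases before that gene. Those of Atm, Topbp1, Clspn, Chek2 and Rnf168 lie partly inside theirs. The plain CCAAT box, searched as CCAAT on both strands, was present for 6 of the 10 and in 33.8% of all windows, and overlapped an E2F form in 0 of the member windows. The GC box (GGGCGG) and the CHR element (TTTGAA) were searched in the same way. The GC box was present for Atm, Atr, Rnf8, Rnf168 and Topbp1, and in 32.7% of all windows. The CHR element was present for Rnf8 alone of the 10, and in 16.0% of all windows. Topbp1 and Clspn are printed because both were lowest in the same libraries, and Chek2 and Mdc1 as the other genes with a match. Each run is the part of the window before the annotated gene, 5′ to 3′ on the plus strand, with E2F forms in capitals.
Topbp1, chr9:103305077-103305214: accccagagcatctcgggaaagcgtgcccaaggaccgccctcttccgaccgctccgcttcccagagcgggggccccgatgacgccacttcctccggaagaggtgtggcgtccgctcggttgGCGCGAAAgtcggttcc
Clspn, chr4:126556730-126556934: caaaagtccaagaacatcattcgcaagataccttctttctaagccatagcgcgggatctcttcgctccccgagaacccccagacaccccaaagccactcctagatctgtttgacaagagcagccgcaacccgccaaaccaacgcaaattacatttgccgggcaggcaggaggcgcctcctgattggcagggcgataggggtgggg
Chek2, chr5:110839733-110839978: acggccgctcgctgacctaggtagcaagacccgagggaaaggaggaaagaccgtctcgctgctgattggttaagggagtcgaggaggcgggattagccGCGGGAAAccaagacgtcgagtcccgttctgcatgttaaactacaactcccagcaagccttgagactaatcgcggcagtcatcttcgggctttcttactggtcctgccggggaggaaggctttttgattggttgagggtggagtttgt
Mdc1, chr17:35841248-35841497: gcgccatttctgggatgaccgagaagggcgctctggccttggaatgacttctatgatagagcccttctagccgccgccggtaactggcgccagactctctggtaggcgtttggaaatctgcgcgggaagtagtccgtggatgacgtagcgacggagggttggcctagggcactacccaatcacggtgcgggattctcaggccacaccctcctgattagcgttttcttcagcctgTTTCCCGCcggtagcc
The matches lie 129 bases before the RefSeq start in Topbp1, 152 in Chek2 and 16 in Mdc1. In Topbp1 and Chek2 that start lies inside the annotated gene, so the printed run ends before it. The matches describe letters, not bound sites.

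Levels within the pathway differed far more than levels between the genotypes. Values per kilobase of the longest annotated mRNA, the scale on which genes can be compared, were highest for Mdc1, at 812 ± 138 normalized read counts per kilobase over the 8 libraries (SD), Topbp1 at 776 ± 27.4 and Atm at 626 ± 146. Atrip followed at 273 ± 36.7, Atr at 242 ± 42.6, Rnf168 at 173 ± 13.4, Rnf8 at 154 ± 10.8 and Chek2 at 110 ± 18.5. Clspn at 12.9 ± 3.93 and Chek1 at 8.23 ± 2.73 were the lowest. In this order the ranges of neighbours overlapped except at 2 steps: every Atm value (468 or more) was above every Atrip value (316 or less), and every Chek2 value (84.8 or more) above every Clspn value (17.3 or less). Atr and its obligate partner Atrip stood next to each other on this scale, and the adaptor and the kinase at the end of the ATR branch were the lowest. Lengths are those of a later annotation than the one counted on, so the order of overlapping neighbours is uncertain.

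**Figure D2:**
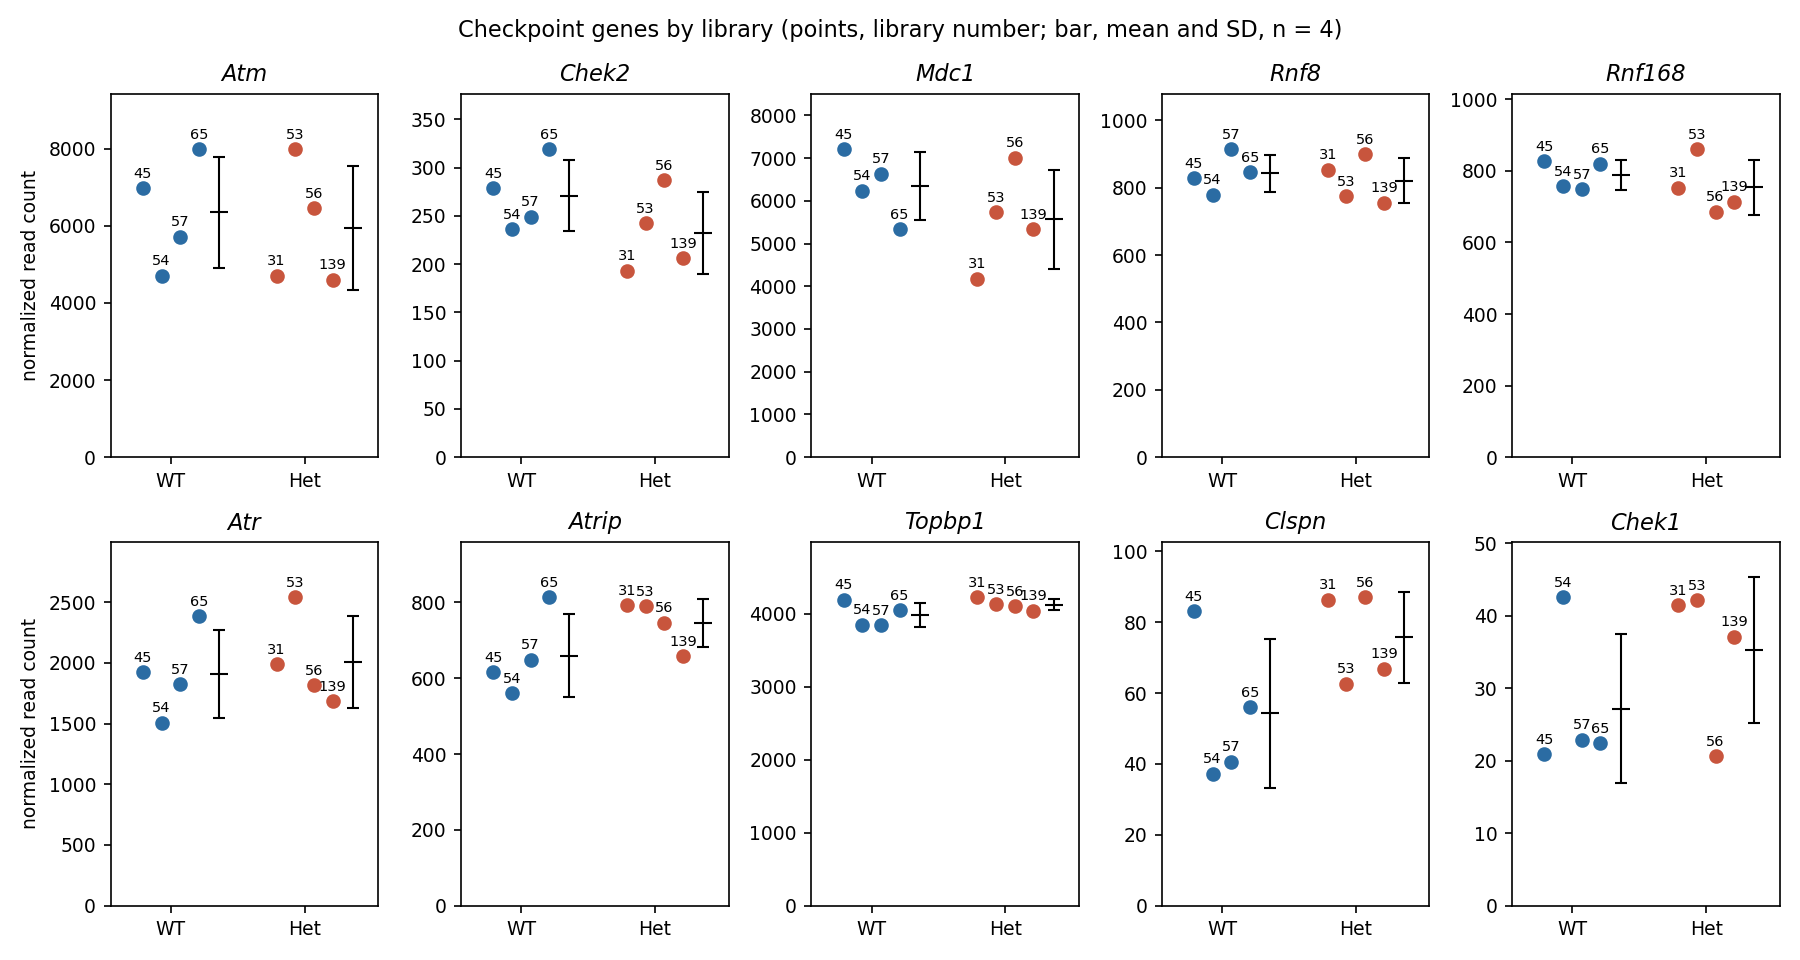
Normalized read count of each checkpoint gene in every library (points, labelled with the library number; vertical axis from 0, its own scale per gene) and the mean with SD of 4 libraries per genotype at the right of each group. The genotypes overlap in all 10 panels, and Topbp1 is nearly level across the 8 libraries.

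On the ATM side, the apical kinase varied between libraries of both genotypes. Atm was at 6979.2, 4708.6, 5716.5 and 7981.2 in WT 45, 54, 57 and 65, against 4700.7, 7992.9, 6459.7 and 4597.6 in Het 31, 53, 56 and 139. WT 65 and Het 53 were the highest of the 8, WT 54, Het 31 and Het 139 the lowest, and each genotype covered nearly the whole range. The means were 6346 ± 1432 in WT against 5938 ± 1615 in Het (SD, n = 4 each), which is -0.11 for Het minus WT on the log2 scale (SE 0.20, 95% interval -0.56 to 0.34, limma adjusted p = 0.888). Its residual SD of 0.36 on the log2 scale was larger than that of 95% of the 500 tested genes nearest to it in level. Without WT 65 or without Het 139 the difference was 0.013 and 0.0035, so its sign rests on single libraries.

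Chek2, which encodes the checkpoint kinase downstream of ATM, was at 278.6, 236.2, 249.1 and 319.2 in WT 45, 54, 57 and 65, against 193, 242.6, 286.8 and 206 in Het 31, 53, 56 and 139. Het 31 and Het 139 lay below every WT library, and Het 56 above 3 of the 4. The means were 271 ± 36.8 and 232 ± 42.1 (SD, n = 4 each, log2 difference -0.23, SE 0.18, 95% interval -0.63 to 0.17, limma adjusted p = 0.742). Mdc1, the scaffold that reads phosphorylated histone H2AX, was at 7212.8, 6234.6, 6635.6 and 5328.3 in WT 45, 54, 57 and 65, against 4176, 5738.2, 7005.2 and 5332 in Het 31, 53, 56 and 139. Het 31 was the lowest of the 8 and WT 45 the highest, and the difference between the means of 6353 ± 792 and 5563 ± 1167 did not pass the test (SD, n = 4 each, log2 difference -0.21, 95% interval -0.54 to 0.13, limma adjusted p = 0.723). Without Het 31 the Mdc1 difference was -0.08, and without Het 56 it was -0.33 (limma unadjusted p = 0.0391, adjusted p = 0.287). That of Chek2 was -0.15 without Het 31 and also without WT 65.

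The ubiquitin ligases that act after MDC1 were the steadiest of the ATM side. Rnf8, which adds the first ubiquitin marks, lay between 779.3 and 915.4 in WT and between 756.2 and 900.1 in Het (log2 difference -0.04, 95% interval -0.27 to 0.19, limma adjusted p = 0.927). Rnf168, which extends those marks on histone H2A, lay between 749.1 and 827.5 in WT and between 686.4 and 861.1 in Het (log2 difference -0.07, 95% interval -0.31 to 0.17, limma adjusted p = 0.864). Their residual SDs were larger than those of only 11.4% and 12.2% of the 500 genes nearest in level. Rnf8 exons share 1542 bases with another protein-coding gene model on the same strand, so its value may hold reads of both.

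On the ATR side, Atr was at 1923.8, 1507.7, 1823.7 and 2382.6 in WT 45, 54, 57 and 65, against 1987.3, 2537.8, 1815.5 and 1685.1 in Het 31, 53, 56 and 139. As with Atm, WT 65 and Het 53 were the highest. The means were 1909 ± 362 and 2006 ± 375 (SD, n = 4 each, log2 difference 0.07, 95% interval -0.28 to 0.42, limma adjusted p = 0.903), and the difference was -0.03 without WT 54 and -0.05 without Het 53. Atrip was at 615.8, 560.4, 649.3 and 813.2 in the same WT order and at 792.2, 790.6, 746.5 and 657.8 in Het. Each Het library was above 3 of the 4 WT libraries, and WT 65 was above all of them. Its means were 660 ± 109 and 747 ± 63.0 (SD, n = 4 each, log2 difference 0.19, 95% interval -0.11 to 0.49, limma adjusted p = 0.718). Atrip shares 1147 exon bases with Trex1, a DNA exonuclease gene on the same strand, and Atr shares 726 with an antisense gene of the table. Reads in the bases shared by Atrip and Trex1 cannot be assigned by strand, so the Atrip value is uncertain there. That of Atr is uncertain because the counting's strand setting is not given in the sources used here.

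Topbp1, the activator of ATR, was almost constant. It was at 4190.9, 3846.5, 3837.8 and 4049 in WT 45, 54, 57 and 65, against 4221.2, 4125.1, 4099.9 and 4040.4 in Het 31, 53, 56 and 139. The highest value was 1.10 times the lowest, and its residual SD of 0.05 on the log2 scale was larger than that of only 1.2% of the 500 genes nearest in level. The genotype difference was 0.05 (SE 0.07, 95% interval -0.11 to 0.21, limma adjusted p = 0.847), the narrowest interval of the 10. WT 54 and WT 57 stood apart below the other 6 libraries.

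Clspn, the adaptor through which ATR reaches CHK1, had the largest difference of the 10 and did not pass the test. It was at 83.2, 37.2, 40.6 and 56 in WT 45, 54, 57 and 65, against 86.4, 62.7, 87 and 66.9 in Het 31, 53, 56 and 139. All 4 Het libraries were above 3 of the 4 WT libraries, and WT 45 was above Het 53 and Het 139. The means were 54.2 ± 20.96 in WT against 75.8 ± 12.8 in Het (SD, n = 4 each), which is 0.53 for Het minus WT on the log2 scale (SE 0.31, 95% interval -0.16 to 1.22, limma adjusted p = 0.662). The difference lay between 0.38 and 0.76 when 1 library was left out, and the adjusted threshold was not reached in any of these fits. WT 54 and WT 57, the lowest for Clspn, were also the lowest for Topbp1. Judged by the number of different values below it, Clspn rested on about 91, 60, 53 and 74 reads in WT 45, 54, 57 and 65. In Het 31, 53, 56 and 139 it rested on about 105, 67, 65 and 59. About 60 reads stood behind 37.2 in WT 54 and about 65 behind 87 in Het 56. The part of the scaling of low values in the Clspn difference was not tested.

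Chek1, the effector kinase of the ATR branch, was the lowest of the 10 and fell into separate clusters of libraries that cut across genotype. It was at 20.9, 42.5, 22.9 and 22.4 in WT 45, 54, 57 and 65, against 41.4, 42.1, 20.6 and 37.1 in Het 31, 53, 56 and 139. No library lay between 22.9 and 37.1. The means were 27.2 ± 10.3 and 35.3 ± 10.05 (SD, n = 4 each, log2 difference 0.37, SE 0.39, 95% interval -0.49 to 1.24, limma adjusted p = 0.790), and the difference was 0.60 without WT 54 and 0.61 without Het 56. Judged by the number of different values below it in its library, the Chek1 value rested on about 34, 65, 34 and 36 reads in WT 45, 54, 57 and 65 and on about 56, 47, 16 and 33 in Het 31, 53, 56 and 139. The 95% Poisson intervals, which cover counting error only, were 23.5 to 47.5 for the 34 reads of WT 45 and 50.2 to 82.8 for the 65 of WT 54, which do not overlap. In Het they were 9.15 to 26.0 for the 16 reads of Het 56 and 22.7 to 46.3 for the 33 of Het 139, which overlap. Counting error therefore does not separate all libraries of the clusters. The reads behind a value differ between libraries (about 34 for 20.9 in WT 45, 47 for 42.1 in Het 53). Intervals in reads therefore do not compare every pair of libraries. Myeloid markers were at log2 levels (list means) of 7.72, 8.77, 8.17 and 8.15 in the 4 WT libraries and 9.40, 8.75, 7.66 and 8.70 in the 4 Het libraries, in the same order. Their 6 genes were all higher in Het (52.0% of all tested genes were) without passing limma, and none was at 0 in any library. All 6 B cell and all 5 NK cell markers were higher in Het too, and none passed. Lyz2, a lysozyme of the myeloid list, was at 751 ± 258 in WT against 1374 ± 785 in Het (SD, n = 4 each, limma adjusted p = 0.690). B cell markers were at 8.42, 9.83, 9.05 and 9.67 in WT and 10.94, 9.97, 8.76 and 9.10 in Het, in the same order. NK cell markers were at 5.26, 6.53, 6.13 and 7.46 in WT and 8.79, 7.83, 6.10 and 7.19 in Het. No relation of Chek1 to the myeloid, B or NK cell levels was computed. The part of these cells in the Chek1 values was not tested.

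Ratios of partners within a library were compared between genotypes for 6 pairs, and none passed the test. At ranks averaging 100 or more the values share 1 distribution, so a ratio of genes at different levels still depends on the normalization. The log2 ratio of Atr to Atrip was 1.53 ± 0.09 in WT against 1.41 ± 0.18 in Het (SD, n = 4 each, two-sided exact permutation p = 0.286, adjusted over 6 pairs 0.629). That of Atm to Atr was 1.72 ± 0.10 and 1.54 ± 0.26 (SD, n = 4 each, exact permutation p = 0.257, adjusted 0.629). That of Chek1 to Chek2, the end kinases of the 2 branches, was -3.32 ± 0.61 and -2.72 ± 0.69 (SD, n = 4 each, exact permutation p = 0.314, adjusted 0.629), the largest shift of the 6 at 0.60. The ratios of Atm to Chek2, Atr to Chek1 and Rnf8 to Rnf168 had adjusted exact permutation p of 0.686, 0.686 and 0.886. The smallest p the test can give is 0.0286, or 0.171 after adjustment when 1 pair alone reaches it, so no single pair could have passed.

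The variation of Atm between libraries went with that of long transcripts. For each library the median deviation of the 648 tested genes with an mRNA of 8000 bases or more, the checkpoint and list genes left out, was taken as its long mRNA level. It was 0.22, -0.11, 0.05 and 0.22 on the log2 scale in WT 45, 54, 57 and 65, against -0.33, 0.16, 0.11 and -0.29 in Het 31, 53, 56 and 139. The 546 genes with an mRNA under 1000 bases moved the other way, at -0.18, 0.05, -0.01 and -0.15 in WT, against 0.22, -0.08, -0.08 and 0.30 in Het. Atm, whose longest mRNA has 9819 bases, followed the long mRNA level with Pearson's r of 0.92 (n = 8, exact permutation p = 0.00228, adjusted over the 10 genes 0.0114) and Spearman's rho of 0.88 (exact permutation p = 0.00724, adjusted 0.0724). Without Het 31 and Het 139, the libraries farthest from the median, r was 0.93, and with the genotype means removed it was 0.95, since 4 libraries of 1 genotype are too few for a value of their own. This relation was looked for after the Atm values had been seen.

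Length alone did not order the 10 genes by this relation. Chek2, with an mRNA of 2276 bases, had r of 0.90 (n = 8, exact permutation p = 0.00198, adjusted 0.0114) and rho of 0.83 (exact permutation p = 0.0154, adjusted 0.0769), and r of 0.69 without Het 31 and Het 139. Atr, with 8102 bases, had r of 0.51 and rho of 0.45 (n = 8, exact permutation p = 0.193 and 0.267, adjusted 0.322 and 0.446), and r of 0.78 without the same libraries. For the other members, r lay between -0.02 for Clspn and 0.65 for Mdc1, none with an adjusted exact permutation p below 0.232, with no pooled value for Chek1 and Topbp1, whose libraries form separate clusters. Without Het 31 and Het 139, r was 0.72 for Clspn and -0.11 for Mdc1, so this range depends on those libraries. Chek1 ran opposite to Atm and Chek2 and did not pass (adjusted exact permutation p = 0.232), and Topbp1 did not pass (adjusted exact permutation p = 0.955). With the long mRNA level as a covariate in limma, an alternative chosen after seeing the data, the residual SD of Atm went from 0.36 to 0.12 and its genotype difference from -0.11 to 0.18 (95% interval -0.03 to 0.38, limma adjusted p = 0.674). The same fit gave 0.22 for Atr and 0.26 for Atrip (95% intervals -0.10 to 0.54 and -0.05 to 0.57), and 0 of the 10 genes passed (0.0996% of all tested genes did).

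**Figure D3:**
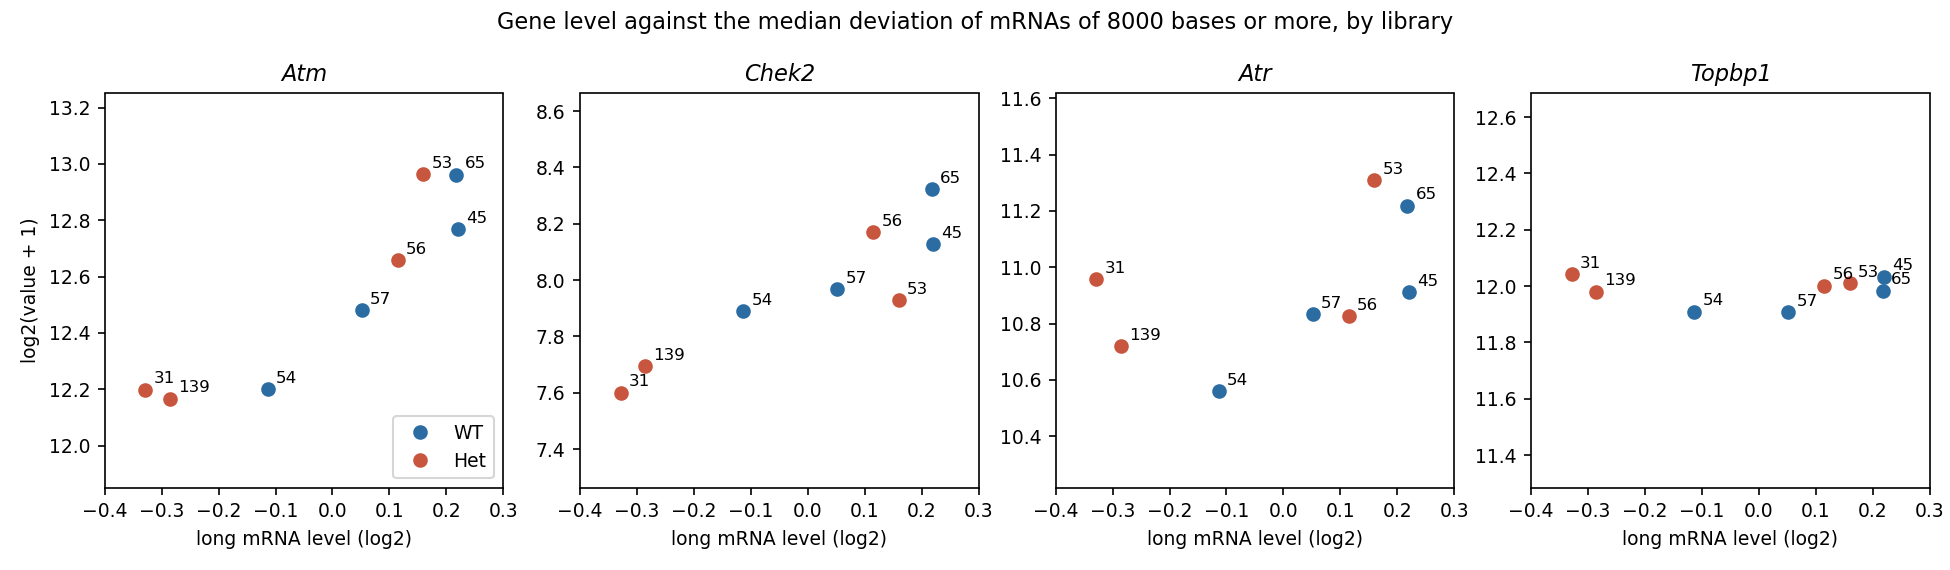
Log2(value + 1) of Atm, Chek2, Atr and Topbp1 against the long mRNA level of each library (points labelled with the library number; all panels span the same 1.4 log2 units). Atm and Chek2 rise along the axis in both genotypes, and Topbp1 stays level.

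Genes with the pattern most like that of each kinase were sought next. Over the 8 libraries, Pearson's r with Atm was highest, among 11040 named tested genes, for Usp24 and Usp34, both ubiquitin proteases, at 0.997 each, and for Rev3l, a translesion polymerase, at 0.994, with mRNAs of 10594, 12200 and 10713 bases. Most like Atr were Ubr1 (0.985) and Ltn1 (0.983), both ubiquitin ligases, and Dcaf10 (0.977), with mRNAs of 7768, 7743 and 7250 bases. Most like Chek2 were Lphn1 (0.980), Kdm2b (0.979) and Tgif1 (0.974), with 8181, 5180 and 1714 bases. For Chek1, whose libraries form clusters, they were Smyd4, Bzw2 and C6, a complement protein at a mean value of 17.9. Spearman's rho with the respective kinase was between 0.88 and 1 for the 12 genes. These are the highest of many values over libraries that share 1 distribution at ranks averaging 100 or more, and carry no test.

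Among the 10 genes themselves no pair passed a test of common variation. Of the 45 pairs, Atr with Atrip had r of 0.80 and rho of 0.71 (n = 8, exact permutation p = 0.0145 and 0.0576, adjusted over 45 pairs 0.228 and 0.520), and Atm with Atr had r of 0.80 and rho of 0.69 (n = 8, exact permutation p = 0.0152 and 0.0694, adjusted 0.228 and 0.520). With the 2 farthest libraries left out, r was 0.70 and 0.69. No pooled correlation is given for pairs with Chek1 or Topbp1, whose libraries form separate clusters, but they count among the 45. The pair with the smallest p of all, Topbp1 with Clspn, is among them and did not pass (exact permutation p = 0.0029, adjusted 0.131), nor did Chek1 with Chek2 (exact permutation p = 0.030, adjusted 0.270), whose values ran in opposite directions.

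**Figure D4:**
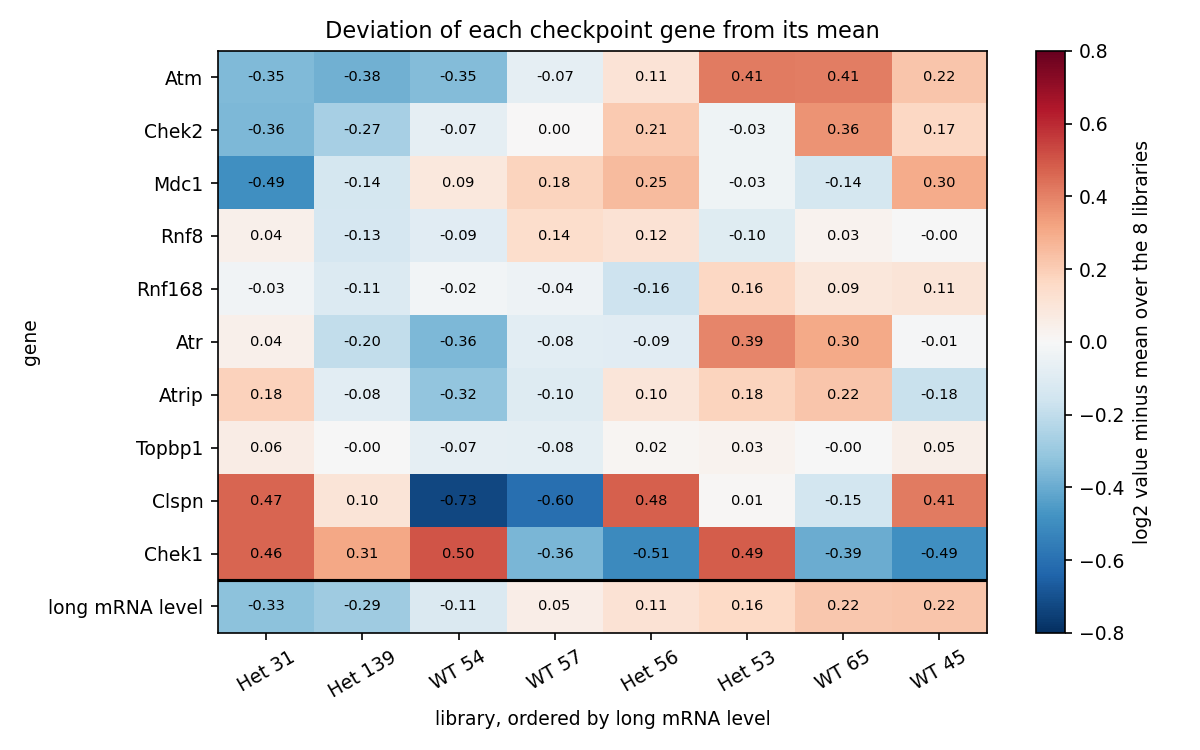
Log2 value of each checkpoint gene in each library minus its mean over the 8 libraries (red above, blue below), libraries ordered from the lowest to the highest long mRNA level, which is the bottom row. Atm and Chek2 go from blue to red in that order, Topbp1 is nearly white, and Clspn and Chek1 vary most.

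CHK1 and claspin act in cells that replicate DNA, so the genes were set against a list of 30 proliferation genes. Over the list the mean log2 level was 7.69 ± 0.08 in WT against 7.88 ± 0.16 in Het (SD, n = 4 each). Of the 30 genes, 22 were higher in Het (52.0% of all tested genes were), and none passed limma (0.515%). At an unadjusted limma p under 0.05 there were 2 of 30 (8.19%). The genotypes did not overlap in 1 of 30, Ccnb1 (5.0%). Mki67, a marker of cycling cells, was at 400 ± 49.0 in WT against 299 ± 52.8 in Het (SD, n = 4 each, limma adjusted p = 0.535), and Ccnb1, the mitotic cyclin, at 5.95 ± 2.55 and 18.0 ± 10.7 (SD, n = 4 each, limma adjusted p = 0.578). These had the smallest p of the list, and their differences were opposite in sign. The Mki67 mRNA has 10061 bases, and its value was lowest in Het 31 and Het 139, the libraries with the lowest long mRNA level. Ccnb1 lay between 3.3 and 33.7, among the low values. The part of mRNA length or of few reads in these differences was not tested. No relation of a checkpoint gene to the list level passed the test over 10 genes. The highest was Atrip, with r of 0.71 and rho of 0.69 (n = 8, exact permutation p = 0.0513 and 0.0694, adjusted 0.513 and 0.649), and r of 0.57 without Het 31 and Het 53, the farthest from the median. Clspn had r of 0.39 and rho of 0.36 (n = 8, exact permutation p = 0.338 and 0.389, adjusted 0.564 and 0.649), and r of 0.14 without Het 31 and Het 53. No pooled correlation is given for Chek1 and Topbp1, whose libraries form separate clusters; both count among the 10 in the adjustment, and neither passed (adjusted exact permutation p = 0.566 and 0.564 for r).

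The rest of the pathway, 57 genes in 4 lists of which 54 were found and 53 tested, held no gene past the adjusted threshold by limma (0.515% of all tested genes), and 1 at an unadjusted p under 0.05 (8.19%). The genotypes overlapped in all 53. Over all tested genes 52.0% were higher in Het.

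Genes that load and activate ATR, among them the single-strand binding protein RPA, the checkpoint clamp and its loader, were higher in Het in 13 of 14, with a median log2 difference of 0.14 beside 0.01 over all tested genes, and none passed. Tipin, which with Timeless protects the fork, was at 513 ± 56.3 in WT against 659 ± 134 in Het (SD, n = 4 each, log2 difference 0.35, limma adjusted p = 0.617). Rpa3, the smallest RPA subunit, was at 211 ± 51.5 and 303 ± 82.7 (SD, n = 4 each, 0.51, limma adjusted p = 0.625), and Rad1, of the clamp, at 561 ± 15.4 and 638 ± 77.3 (SD, n = 4 each, 0.18, limma adjusted p = 0.705). With median-ratio factors 10 of 14 were higher, with the long mRNA level as a covariate 12 of 14, and without Het 56 9 of 14. Without Het 31 the median was 0.055.

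Genes of ATM activation and of the assembly of its kinase family were lower in Het in 7 of 9 (median log2 difference -0.07), and none passed. Smg1, a kinase of the same family that acts in RNA surveillance, was at 30143.7, 17421.1, 21536.6 and 37085.8 in WT 45, 54, 57 and 65, against 15670.8, 36077.6, 26800.6 and 17219.8 in Het 31, 53, 56 and 139 (limma adjusted p = 0.874). As for Atm, WT 65 and Het 53 were the highest and WT 54, Het 31 and Het 139 the lowest, and its mRNA has 15557 bases. Telo2, a cofactor that stabilises these kinases, was at 1098 ± 92.1 and 1021 ± 93.3, and Atmin, an ATM partner, at 1656 ± 109 and 1736 ± 115 (SD, n = 4 each, limma adjusted p = 0.781 and 0.834). With the long mRNA level as a covariate 6 of the 9 were higher in Het, and so were 6 without Het 31, where the median was 0.0049.

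Genes of signalling in chromatin at breaks were lower in Het in 13 of 18 (median -0.06), and none passed. Fam175a, the scaffold of the complex that brings BRCA1 to ubiquitin marks, was at 499 ± 50.4 and 589 ± 55.4 (SD, n = 4 each, log2 difference 0.24, limma adjusted p = 0.653). Rnf169, a paralog of Rnf168, was at 1352 ± 105 and 1181 ± 216 (-0.21, limma adjusted p = 0.690), and Paxip1, which binds 53BP1, at 2389 ± 175 and 2140 ± 329 (SD, n = 4 each, -0.17, limma adjusted p = 0.716). With the long mRNA level as a covariate 10 of the 18 were higher, and without Het 139 8 of the 18.

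Effectors and brakes of the checkpoint had 9 of 12 tested members lower in Het (median -0.07), and none passed. Cdc25b, a phosphatase that opens entry to mitosis, was the pathway gene with the smallest p, at 2899.1, 3391.8, 3419.6 and 3460.6 in WT 45, 54, 57 and 65, against 2657.4, 3013.1, 2740.2 and 2352.3 in Het 31, 53, 56 and 139 (log2 difference -0.29, SE 0.10, limma unadjusted p = 0.0141, adjusted p = 0.441). WT 45 was below Het 53, and the other WT libraries were above every Het library. Plk1, a mitotic kinase that ends the checkpoint, was at 53.2 ± 16.4 and 81.5 ± 13.8 (SD, n = 4 each, 0.64, limma adjusted p = 0.611), and Ppm1d, a phosphatase that reverses ATM signalling, at 1432 ± 71.3 and 1250 ± 120 (SD, n = 4 each, -0.20, limma adjusted p = 0.646). With the long mRNA level as a covariate 6 of the 12 were higher in Het.

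**Figure D5:**
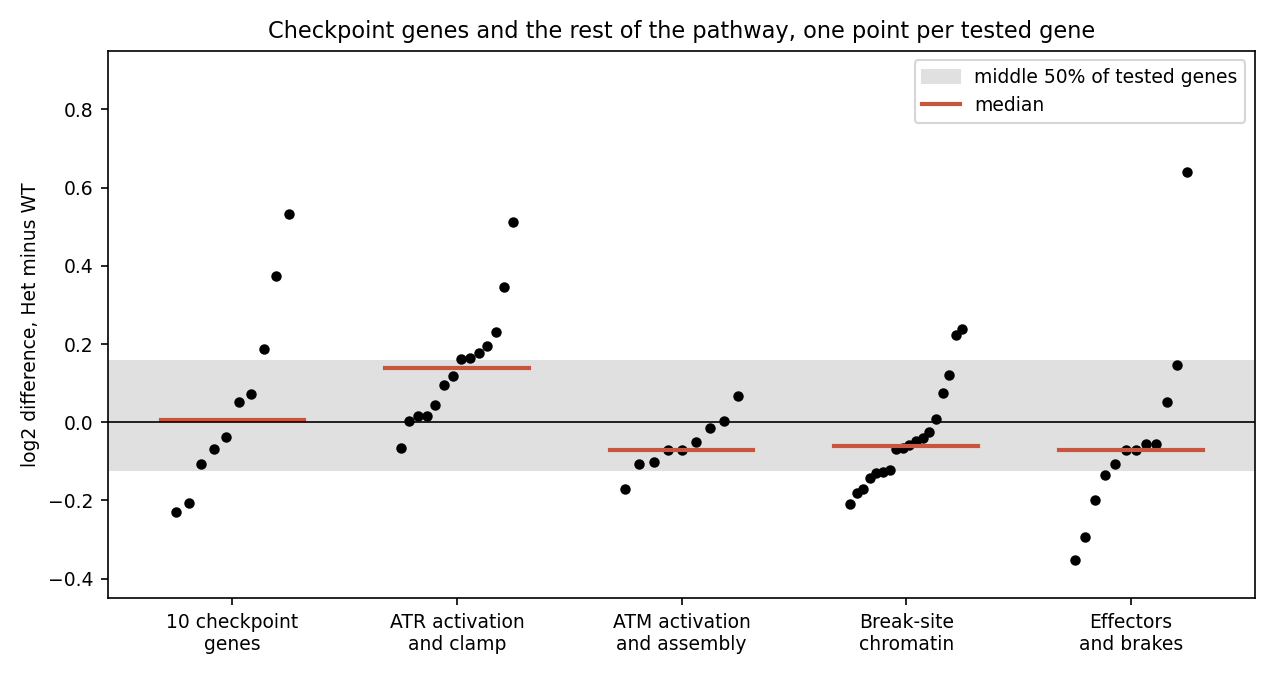
Log2 difference, Het minus WT, of each tested gene among the 10 checkpoint genes and the 4 lists of the rest of the pathway (points, sorted within a list; red line, median; grey band, middle 50% of all tested genes). The medians are 0.0063, 0.14, -0.07, -0.06 and -0.07 from left to right, and no point passed the adjusted test.

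Brca1 itself, which acts downstream of RNF168, did not pass the test either, and its difference was slightly below that of Chek2, the lowest of the 10. Its log2 difference was -0.25 (SE 0.20, 95% interval -0.68 to 0.18, limma adjusted p = 0.742). Its level per kilobase, 25.6 ± 4.40 over the 8 libraries (SD), was above every Clspn and Chek1 value and below every Chek2 value. A value per gene does not show which allele the reads came from, so it gave no check of the genotype labels.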

How the data were processed

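RNA sequencing of naive CD8 T cells gave 8 libraries, 4 WT and 4 Het, grouped by their titles. The authors deposited normalized read counts, a signal per gene with 1 decimal. CASAVA, TopHat2, HTSeq, DESeq and mm9 are listed, per the submitters' processing notes, with no step attached. How values were normalized, and with which strand setting reads were counted, is not given in the sources used here. Sorted, the columns share 1 distribution: at 100% of the 9513 ranks averaging 100 or more, every library came within 2% of the rank average. Whole reads were not recovered and no count model was used. Genes with a mean of at least 10 (12048) were tested with limma 3.58.1 (R 4.3.3, trend, two-sided) on log2(value + 1), a scale that understates changes of low genes, with Benjamini-Hochberg adjustment. Ratios and correlations used exact permutation tests, all two-sided. The tests were checked on simulated data. mRNA lengths (longest protein-coding transcript, GENCODE M21) were found for 96.0% of tested genes.

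The members and lists were chosen with earlier results of these data known. Named are the 10 members, Brca1, the 3 genes with the smallest p of each pathway list, Mki67 and the 2 proliferation genes with the smallest p, 3 genes most like Atm, Atr, Chek1 and Chek2, and Cd8a, Cd79b, Lyz2 and Dcn as markers. Cd79b, a B cell receptor chain, was at 1496 ± 531 in WT against 2401 ± 1596 in Het (SD, n = 4 each, limma adjusted p = 0.718). NK cell markers were at mean log2 levels of 5.26 to 7.46 in WT and 6.10 to 8.79 in Het. Alternatives were the pseudocount, the filter, median-ratio factors, the variance model, library weights, leaving out each library, and, added after seeing the data, the long mRNA level as a covariate.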

Additional observations from a re-analysis of the deposited data

Results flagged for a closer look

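In groups of 4, a library was singled out when most of the spread of its group was the distance between it and the next library (Dixon's criterion). By chance about 1 group in 20 meets this. It did so in 6 of the 152 groups examined (3.95%). Chek1 was at 42.5 in WT 54 and at 20.9 to 22.9 in the other WT libraries. Rad17, the clamp loader subunit, was at 1226 in Het 56 and at 1049 to 1060 in the other Het libraries. Atmin was at 1819 in WT 65 (others 1586 to 1613), and so was Ube2v2, a ubiquitin-conjugating enzyme variant, at 373.6 (others 253.6 to 261.4). The list of ATR activation genes was also highest among WT in WT 65, with a list mean of 9.66 on the log2 scale (others 9.50 to 9.53). Cdc25b was at 2899 in WT 45 and at 3392 to 3461 in the other WT libraries.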

How the results depend on the processing

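The count of checkpoint genes past the threshold was 0 under all 8 other settings, without any 1 library and with the long mRNA level as a covariate, and the same held for the 4 pathway lists (a mean of at least 50 leaves out Chek1). The lowest adjusted p of the 10 by limma was 0.287, for Mdc1 without Het 56. The count over all tested genes, 62, was 123 with any value above 0, 14 with a mean of at least 50 and 12 with the covariate, and 11 to 91 without 1 library (16, 11 and 16 without WT 54, 57 and 65, and 27, 21 and 30 without Het 31, 53 and 139). Differences that changed sign without 1 library were those of Atm (-0.26 to 0.013), Atr (-0.046 to 0.19) and Rnf8 (-0.083 to 0.0024), and Atm was at 0.18 with the covariate. So did the ratios of Atm to Chek2 (-0.0066 to 0.18) and Rnf8 to Rnf168 (-0.058 to 0.12), and r with the proliferation list for Atm (-0.24 to 0.45), Chek2 (-0.61 to 0.071) and Rnf168 (-0.37 to 0.12). The cause was not tested, and none of these values passed a test. No paired analysis was possible because the genotypes share no replicate number. Chek1 rests on an estimated 16 to 65 reads a library and Clspn on 53 to 105.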
